A study of Mus musculus with 9 samples.

Results

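Lung transcripts of silica-exposed mice that received atractylenolide III were compared with those of silica-exposed mice that did not. The comparison uses 6 of the 9 samples of the study and every gene with an FPKM (a read count scaled to exon length and to the size of the library) that reaches 1 in 3 or more of the 9 libraries. This left 15459 of 55359 genes. All mice were male C57BL/6J, 6 to 8 weeks old at the start, and the lungs were taken on day 28. The Silica group (3 libraries) had received 5 mg of silica in saline into the trachea. The Silica + ATL-III group (3 libraries) had received the same dust and also atractylenolide III (ATL-III), a sesquiterpene lactone of Atractylodes rhizomes, into the abdominal cavity at 30 mg/kg per day. The Control group (3 libraries) had received saline into the trachea, and its levels are given beside the others for orientation. Each group held 20 mice, but whether a library stands for 1 animal is not in the labels. The p-values therefore measure only the spread between samples, part of which may be technical. ATL-III was not given to mice without silica, and no vehicle injection is named for the Silica group, so effects of the compound, of its injection and of the handling of the animals cannot be told apart here.

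Silica crystals taken up by lung macrophages damage lysosomes, set off the inflammasome and the release of interleukin 1, and draw in further macrophages, neutrophils and lymphocytes around which fibroblasts lay down collagen. Macrophages of scarred lung are known for osteopontin (Spp1), the elastase Mmp12, cathepsin K and the lipid receptor Trem2. Neutrophils fill their granules in a fixed order while they mature in the bone marrow: azurophil granules first, then specific granules and gelatinase granules, and last the secretory vesicles. The title of the study names autophagy and the signals of EGFR, the epidermal growth factor receptor, through mTOR, a kinase of cell growth. The comparison asks how the lung transcriptome of silica-exposed mice differed when ATL-III was given.

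The 6 libraries compared held 16288590 to 17792481 counts. On the first principal component (36.3% of the variance of log2(FPKM + 0.5)) the 3 Silica + ATL-III libraries lay between 37.1 and 44.9 and the 3 Silica libraries between -21.4 and -13.8. The Control libraries lay between -28.4 and -16.8, overlapping the Silica range. The lung label was checked against markers. The surfactant gene Sftpc and the club cell gene Scgb1a1 were among the most abundant transcripts in all 9 libraries, while the 5 defining markers of cartilage, bone and thymus did not exceed 0.50 FPKM in any. Summed FPKM of the 5 defining heart and skeletal muscle markers ran from 30.3 to 51.2 in Silica and from 21.0 to 44.2 in Silica + ATL-III. Libraries within a group differed: Silica 2 had the lowest level of many macrophage genes, Silica + ATL-III 3 the lowest level of several hormone-induced genes, and Silica + ATL-III 1 held little haemoglobin RNA (Hbb-bs 945, 4697 and 4368 FPKM in the 3 treated libraries, 3642, 6795 and 4259 in Silica). In bulk tissue, fewer cells of a type and less RNA per cell cannot be told apart.

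The quasi-likelihood test of edgeR (Benjamini-Hochberg adjusted) called 3279 of 15459 genes different between the groups (21.2%), of which 1726 (11.2% of the genes tested) were higher in Silica + ATL-III than in Silica and 1553 (10%) were lower. At least a 2-fold change was reached by 595 of the genes called higher and 350 of those called lower. Of the 3279 genes called, 3114 had no overlap of libraries between Silica and Silica + ATL-III, so a lack of overlap adds little to a call. The median log2 fold change over all genes tested was -0.00034. The calls fell to 2103 without Silica 1, 2044 without Silica 3 and 1925 without Silica + ATL-III 2. With only the 6 libraries compared in the fit, 2309 genes were called. Throughout, higher and lower mean Silica + ATL-III relative to Silica, levels are FPKM of libraries 1, 2 and 3 in that order, and changes are log2 fold changes ± SE with the adjusted p of that test. Gene lists were described by how many members were called in each direction, beside the 11.2% and 10% of all genes.

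**Figure D1:**
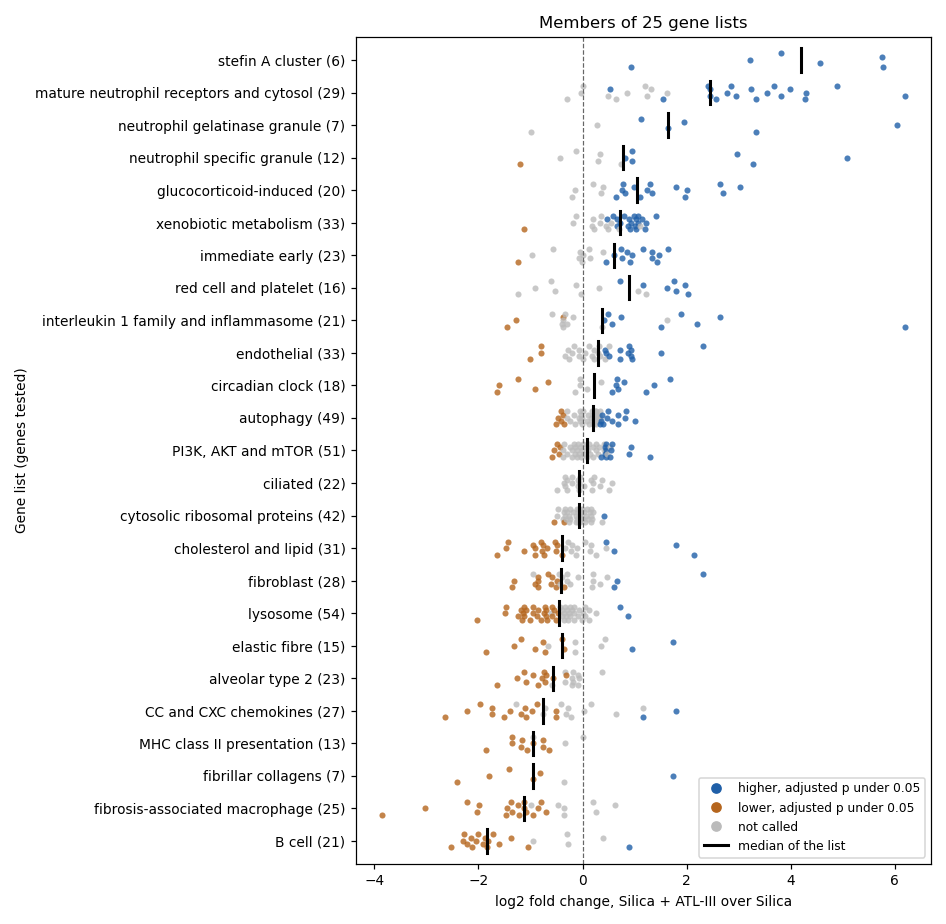
Log2 fold change (Silica + ATL-III over Silica) of every tested member of 25 gene lists, 1 point per gene, coloured by edgeR call at an adjusted p under 0.05, with a black bar at the list's median. The neutrophil lists lie to the right (medians 0.78 to 4.20) and the B cell, fibrosis-associated macrophage and fibrillar collagen lists to the left (medians -1.83, -1.13 and -0.95), while the ciliated cell and ribosomal protein lists lie around 0.

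Neutrophil transcripts rose: the summed FPKM of 9 defining markers ran from 729.6 to 4495 in Silica and from 29737 to 45191 in Silica + ATL-III, with all 9 called higher. S100a8, a subunit of calprotectin, stood at 783, 1764 and 267 FPKM in Silica and at 11884, 11384 and 20401 FPKM in Silica + ATL-III (3.99 ± 0.84, adjusted p = 0.0067). Its partner S100a9 stood at 1049, 2401 and 385 against 14144, 13563 and 20371 FPKM (3.68 ± 0.79, adjusted p = 0.0074). Silica 2 was the highest Silica library for both, still far under the lowest treated one, and together these 2 genes took 0.132% ± 0.106 (SD, n = 3) of all counts in Silica and 1.85% ± 0.549 (SD, n = 3) in Silica + ATL-III. DESeq2 gave no adjusted p for S100a8, S100a9 and Retnlg. Mmp8, the collagenase of neutrophil granules on chromosome 9, was measured at 7.42, 15.3 and 5.05 FPKM in Silica and 542, 763 and 488 FPKM after treatment (6.04 ± 0.60, adjusted p = 0.00012). Il1r2, the decoy receptor for interleukin 1, was at 3.52, 4.33 and 2.27 against 279.5, 301 and 153 FPKM (6.20 ± 0.72, adjusted p = 0.00026). Prok2, a secreted chemoattractant peptide, stood at 0.09, 0.28 and 0 FPKM in Silica and 10.5, 10.3 and 9.95 FPKM in Silica + ATL-III (6.38 ± 0.47, adjusted p = 7.9e-05). Treated libraries lay close together for Prok2. They alone were enough to pass it through the expression filter, since no Silica library reached 1 FPKM. No library of one group reached the range of the other for any of these 5 genes. Control 2 also stood above the other Control libraries for neutrophil genes (S100a8 209, 1458 and 184 FPKM in Control).

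**Figure D2:**
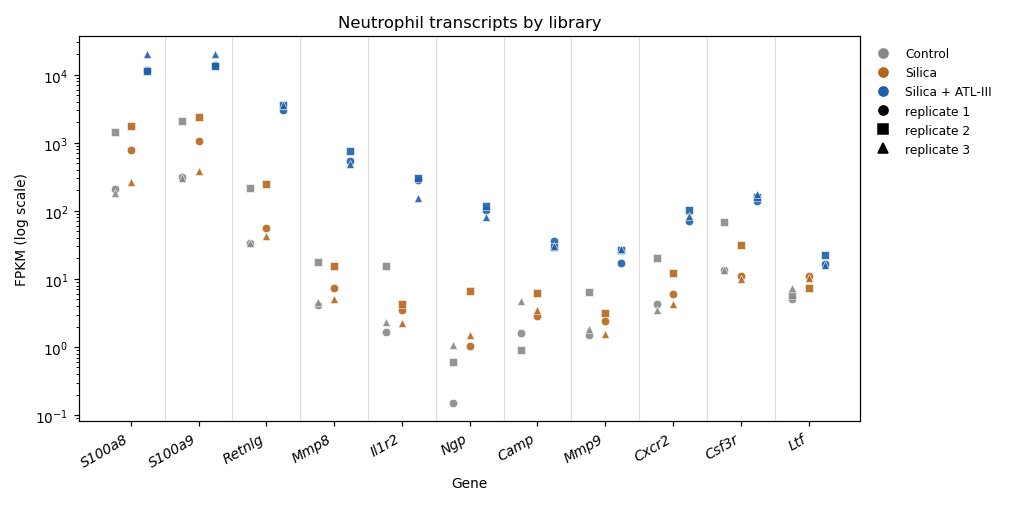
FPKM on a log axis of 11 neutrophil transcripts in each of the 9 libraries, coloured by group with a symbol for each replicate. The 3 Silica + ATL-III libraries lie above the 3 Silica libraries for every gene shown, by the most for Il1r2 and Mmp8 and by the least for Ltf.

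Read by granule class, the change was uneven. Of 6 azurophil granule genes 5 were in the table and none of these passed the expression filter, and their counts were small: Mpo, myeloperoxidase, had 2 counts over the 3 Silica libraries and 33 over the 3 treated ones, Elane, neutrophil elastase, had 2 and 16, and Prtn3, proteinase 3, had 12 and 116. Of 12 specific granule genes 6 were called higher and 1 lower (2 with DESeq2; median 0.78). Ngp, neutrophilic granule protein, stood at 1.03, 6.62 and 1.52 FPKM in Silica and 102, 119.6 and 81.2 FPKM in Silica + ATL-III (5.09 ± 0.50). Camp, the precursor of the cathelicidin peptide, was at 2.81, 6.12 and 3.48 against 35.6, 29.8 and 30.4 FPKM (2.98 ± 0.40). Ltf, lactoferrin, was at 11.2, 7.36 and 10.3 against 16.6, 22.5 and 15.8 FPKM (0.94 ± 0.19). The member that fell was Cybb, the membrane subunit of the NADPH oxidase that macrophages share, at 40.1, 25.1 and 39.6 against 14.97, 12.4 and 17.7 FPKM (-1.20 ± 0.19, adjusted p = 0.0015). Olfm4 rose (3.27 ± 0.48), and Cd177 (0.74 ± 0.29, adjusted p = 0.092) was not called. Ltf and Lcn2 are also made by airway epithelium, and the call of Lcn2 (0.82 ± 0.26, adjusted p = 0.045) was lost without Control 1, Control 3, Silica 1, Silica 2, Silica 3 or Silica + ATL-III 1, adjusted p up to 0.18, or with DESeq2, with library totals alone, with only the 6 libraries compared or with limma on log2(FPKM + 0.5).

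Genes listed here under gelatinase granules rose in 5 of 7 cases, with none lower (median 1.64). This list includes Mmp8, a collagenase also counted among specific granule proteins, so the contrast between the 2 classes depends on where it is placed. Besides Mmp8 these included Mmp9, gelatinase B, at 2.42, 3.18 and 1.57 FPKM in Silica and 17.02, 26.3 and 27.4 FPKM in Silica + ATL-III (3.33 ± 0.46), the peptidoglycan-binding Pglyrp1 (1.95 ± 0.21) and the formyl peptide receptor Fpr1 (1.64 ± 0.22). Receptors and cytosolic proteins of mature neutrophils were called higher for 19 of 29 genes and lower for none (median 2.46). Cxcr2, the receptor for CXC chemokines, stood at 5.96, 12.3 and 4.22 against 71.8, 103 and 83.96 FPKM (3.55 ± 0.59). Csf3r, the receptor for granulocyte colony-stimulating factor, was at 11.1, 31.1 and 10.1 against 139.9, 161 and 179 FPKM (3.23 ± 0.62). The lineage marker Ly6g rose by 4.30 ± 0.64 and the amplifying receptor Trem1 by 2.94 ± 0.48. Retnlg, a resistin-like peptide of neutrophils on chromosome 16, was at 56.3, 252 and 42.6 FPKM in Silica and 3044, 3592 and 3541 FPKM after treatment (4.90 ± 0.83). All 6 tested genes of the stefin A cluster on chromosome 16, which encodes inhibitors of cysteine cathepsins, were called higher (median 4.20), from Csta2 (0.93) to Stfa2 (5.77). The copies of that cluster are near-identical, so the split of reads between them is uncertain.

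Promoters of the neutrophil and other responsive genes were read from RefSeq (build GRCm38.p6, 250 bases before to 50 after an annotated start), in which 10735 of 15381 tested symbols have an entry. The C/EBP motif TTGCNNAA, searched on both strands, is bound by factors that drive granule genes; it was present at 13 of 48 promoters (27.1%) of the neutrophil lists and at 3547 of all 32851 promoters (10.8%). Below are 4 of these, chosen because their genes rose and the window holds a match, with the match in capitals and all other bases in lower case.
Ngp, chr9:110419558-110419857 (plus strand): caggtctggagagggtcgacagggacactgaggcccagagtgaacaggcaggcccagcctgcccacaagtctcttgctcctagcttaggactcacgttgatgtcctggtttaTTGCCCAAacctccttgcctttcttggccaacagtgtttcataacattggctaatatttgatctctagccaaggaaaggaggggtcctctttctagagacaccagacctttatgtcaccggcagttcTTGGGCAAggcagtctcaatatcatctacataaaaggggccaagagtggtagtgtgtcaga
Mmp8, chr9:7558179-7558478 (plus strand): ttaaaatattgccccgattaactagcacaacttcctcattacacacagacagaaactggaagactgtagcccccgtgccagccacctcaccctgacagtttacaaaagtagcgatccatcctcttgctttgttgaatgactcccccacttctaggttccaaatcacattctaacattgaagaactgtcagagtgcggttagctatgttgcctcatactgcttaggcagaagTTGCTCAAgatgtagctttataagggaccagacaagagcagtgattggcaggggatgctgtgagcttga
S100a9, chr3:90695672-90695971 (minus strand): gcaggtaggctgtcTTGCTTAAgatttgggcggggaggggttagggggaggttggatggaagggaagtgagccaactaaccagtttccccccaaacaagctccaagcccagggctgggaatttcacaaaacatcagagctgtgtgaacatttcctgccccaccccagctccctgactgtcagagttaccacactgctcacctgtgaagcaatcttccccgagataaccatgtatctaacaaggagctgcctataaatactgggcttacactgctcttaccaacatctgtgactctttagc
Retnlg, chr16:48872358-48872657 (plus strand): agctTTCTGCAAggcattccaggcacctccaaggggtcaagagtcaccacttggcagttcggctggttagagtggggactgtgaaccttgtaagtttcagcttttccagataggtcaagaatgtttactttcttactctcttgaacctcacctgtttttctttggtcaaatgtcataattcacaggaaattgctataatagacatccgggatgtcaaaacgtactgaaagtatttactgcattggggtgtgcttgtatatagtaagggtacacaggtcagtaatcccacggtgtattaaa
The matches lie at different places in these windows, and a match is a description of the letters, not a bound site.

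Genes of neutrophil attraction and activation, a list of ligands, receptors and enzymes, moved both ways. Of 11 tested 5 were called higher and 3 lower. Alox5ap, the activating protein of 5-lipoxygenase, stood at 37.3, 32.1 and 28.9 FPKM in Silica and 109, 138 and 149 FPKM in Silica + ATL-III (2.03 ± 0.16, adjusted p = 4.7e-05), the lipoxygenase itself (Alox5) rose by 1.19 ± 0.17, and Ltb4r1, the leukotriene B4 receptor, rose from 0.62, 1.28 and 0.48 to 6.30, 7.54 and 9.64 FPKM (3.33 ± 0.36). C5ar1, the receptor for complement fragment C5a, rose by 2.09 ± 0.30. By contrast the epithelial chemokine Cxcl15 was at 1089, 1578 and 1423 against 856, 483 and 544 FPKM (-1.09 ± 0.22, adjusted p = 0.0052), with no overlap. Csf2, the gene of GM-CSF, was at 6.61, 10.2 and 8.71 against 0.84, 2.46 and 3.78 FPKM (-1.81 ± 0.39). Cxcl5 was also lower (-1.98 ± 0.50, a call lost without Silica + ATL-III 1 or Silica + ATL-III 2, adjusted p up to 0.057), Cxcl1 was not called (-0.29 ± 0.35, adjusted p = 0.6), and the gene of granulocyte colony-stimulating factor, Csf3, had 2 counts over the Silica and 3 over the treated libraries. The part of the higher neutrophil marker sum in the increases of Alox5ap, Alox5, Ltb4r1 and C5ar1 was not tested.

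Interleukin 1 genes moved both ways. Of 21 genes 9 were called higher and 3 lower (5 without the filter; median 0.37). The inflammasome sensor Nlrp3 was at 0.79, 1.17 and 0.62 FPKM in Silica and 2.51, 3.65 and 3.34 FPKM in Silica + ATL-III (adjusted p = 0.0081). The pyrin gene Mefv (2.64 ± 0.36), the inflammatory caspase Casp4 (0.74 ± 0.15), the shared receptor chain Il1rap (1.51 ± 0.15) and the interleukin 18 receptor chain Il18rap (2.21 ± 0.31) also rose. The 3 that fell were the cytokine Il1a, at 8.85, 8.20 and 8.26 FPKM in Silica and 3.36, 2.36 and 3.47 FPKM after treatment (-1.44 ± 0.20, adjusted p = 0.00077), the receptor antagonist Il1rn (-1.27 ± 0.26) and the receptor Il1r1 (-0.38). Il1b, which neutrophils and monocytes both make, stood at 29.9, 55.9 and 19.6 against 96.7, 117 and 104 FPKM without overlap but missed the threshold (1.62 ± 0.68, adjusted p = 0.11). Of the pattern recognition receptors 7 of 22 were higher and 2 lower (5 without the filter). Neutrophils carry many of these receptors, and the part of the higher neutrophil marker sum in their change was not tested. Toll-like receptors Tlr1 (2.20 ± 0.27), Tlr6 (2.23 ± 0.34), Tlr8 (1.70 ± 0.21) and Tlr13 (1.64 ± 0.28) rose with their adaptor Myd88 (0.69 ± 0.13), Tlr4 was not called (0.24 ± 0.10, adjusted p = 0.12), and the fungal lectin receptors Clec4n (-1.98 ± 0.35) and Clec7a (-1.66 ± 0.31) fell. Tlr13 was at 11.9, 8.72 and 8.55 FPKM in Silica and 31.1, 30.4 and 28.6 FPKM in Silica + ATL-III. Clec4n was at 184, 65.3 and 98.95 against 34.4, 21.6 and 31.8 FPKM.

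Several genes of the interleukin 6 and acute phase responses also rose. Socs3, the feedback inhibitor of STAT3, stood at 19.96, 11.8 and 14.5 FPKM in Silica and 41.2, 45.7 and 34.2 FPKM in Silica + ATL-III (1.40 ± 0.19, adjusted p = 0.00063). Il6ra rose by 1.502 ± 0.16, the cytokine Osm, oncostatin M, by 2.40 ± 0.42, and Stat3 by 0.71 ± 0.13. In all, 5 of 14 genes of this list were higher and 1 lower (0 without Silica 1, Silica 3, Silica + ATL-III 1 or Silica + ATL-III 2 and 2 without the filter). Il6 itself was below the filter, with 104 counts over the Silica libraries and 24 over the treated ones. The antiproteases Serpina3m (5.58, 6.92 and 4.38 against 51.2, 45.3 and 29.6 FPKM, 2.92 ± 0.25, adjusted p = 7.4e-05) and Serpina3n (18.1, 19.8 and 17.2 against 177, 163 and 45.3 FPKM, 2.82 ± 0.40) had the largest changes of the acute phase list, and for Serpina3n Silica + ATL-III 3 lay well under the other treated libraries. Itih4, an inter-alpha-trypsin inhibitor chain, went the other way, at 75.05, 28.1 and 50.2 against 20.98, 10.5 and 11.8 FPKM (-1.82 ± 0.33). Acute phase genes were called higher in 5 of 16 cases and lower in 3 (with the number higher at 3 without Silica 3 and 8 without the filter). Serpina3 genes are near-identical neighbours on chromosome 12, so their counts are uncertain.

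Monocyte genes were called higher for 9 of 20 and lower for 2. The number lower was 0 without Silica 1 or Silica + ATL-III 2 or with only the 6 libraries compared, 1 without Silica 2, Silica 3 or Silica + ATL-III 1 and 5 without Silica + ATL-III 3 or without the filter. F13a1, coagulation factor XIII of monocytes and platelets, stood at 4.55, 6.37 and 3.69 FPKM in Silica and 18.4, 26.04 and 29.8 FPKM after treatment (2.37 ± 0.21, adjusted p = 7.9e-05), and the proteoglycan Vcan at 0.82, 1.19 and 0.57 against 3.81, 2.99 and 4.06 FPKM (2.10 ± 0.23). Ly6c2, the marker of inflammatory monocytes, was at 9.71, 14.2 and 9.23 against 29.96, 27.5 and 56.9 FPKM (1.82 ± 0.26), highest in Silica + ATL-III 3. Ccr2, their chemokine receptor, rose by 1.13 ± 0.29 with the same library on top (a call lost without Silica 1 or Silica 3, adjusted p up to 0.079, or with limma on log2(FPKM + 0.5)), whereas Cx3cr1 fell (-1.25 ± 0.38, lost without Silica 1, Silica 2, Silica 3, Silica + ATL-III 1 or Silica + ATL-III 2, adjusted p up to 0.11, or with only the 6 libraries compared). Platelet genes rose too: of 16 red cell and platelet genes 7 were higher and none lower, and the genes called were all of the platelet kind. Itga2b, the platelet fibrinogen receptor chain, stood at 0.85, 1.91 and 0.89 FPKM in Silica and 4.66, 3.91 and 2.51 FPKM in Silica + ATL-III (1.63 ± 0.32). Gp9 was at 2.87, 5.87 and 1.72 against 13.7, 14.9 and 11.5 FPKM (1.97 ± 0.46). The count of 7 became 2 without Silica 1, Silica 3 or Silica + ATL-III 2 and 3 without Silica + ATL-III 1, and the number lower 4 without the filter. Haemoglobin genes were not called, for example Hbb-bs (-0.52 ± 0.44, adjusted p = 0.43), and the part of retained blood in these results was not tested. Of mast cell and basophil genes, Cpa3, mast cell carboxypeptidase, stood at 3.49, 4.98 and 3.00 against 0.77, 0.75 and 0.8 FPKM (-2.28 ± 0.25, adjusted p = 0.0002), while histidine decarboxylase (Hdc), which neutrophils also carry, rose by 1.54 ± 0.18.

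B cell transcripts were lower. Of 21 B cell genes 16 fell and 1 rose (median -1.83). Cd22, an inhibitory B cell receptor, stood at 2.78, 3.27 and 2.66 FPKM in Silica and 0.99, 0.63 and 0.97 FPKM after treatment (-1.73 ± 0.24, adjusted p = 0.00071). Pax5, the factor that fixes B cell identity, was at 0.78, 1.59 and 0.95 against 0.22, 0.09 and 0.25 FPKM (-2.53 ± 0.47). Fcer2a, the low-affinity IgE receptor, was at 2.14, 4.85 and 2.69 against 0.85, 0.27 and 0.8 FPKM (-2.29 ± 0.40). Silica 2 was highest and Silica + ATL-III 2 lowest for Pax5 and Fcer2a, and the groups did not overlap. The call of Cd79a (-1.82 ± 0.44) was lost without Silica + ATL-III 1 or Silica + ATL-III 2, adjusted p up to 0.06, and that of Ms4a1 (-2.05 ± 0.51) without Silica + ATL-III 1, adjusted p up to 0.055. Cd37, a tetraspanin that myeloid cells also carry, was the member that rose (0.902 ± 0.24, lost without Silica 1, Silica 3 or Silica + ATL-III 3, adjusted p up to 0.081, or with limma on log2(FPKM + 0.5)). Immunoglobulin genes varied more between libraries: Igha fell (22.6, 9.45 and 18.7 against 4.81, 3.96 and 5.65 FPKM, -1.80 ± 0.31), while Jchain, at 159, 47.4 and 92.3 against 26.2, 9.25 and 29.1 FPKM, was not called (-2.20 ± 0.73, adjusted p = 0.051), nor was Igkc (adjusted p = 0.21). Of 14 plasma cell genes 4 fell and 1 rose. Those that fell numbered 1 without Silica 1, Silica 3 or Silica + ATL-III 2, 2 without Silica + ATL-III 1 and 7 without the filter. Those that rose numbered 0 without Silica 3 or Silica + ATL-III 2 and 2 without Silica + ATL-III 3.

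With all libraries most T and natural killer cell genes were not called. Of 15 tested T cell genes 4 were lower and none higher (median -0.67). The number lower was 1 without Silica 3 or Silica + ATL-III 2 or with only the 6 libraries compared, 2 without Silica 1 or Silica 2 or with limma on log2(FPKM + 0.5), 7 with DESeq2 and 9 without the filter. Il7r, the interleukin 7 receptor, which some macrophages of diseased lung also express, stood at 18.6, 10.5 and 12.1 FPKM in Silica and 7.56, 3.46 and 4.70 FPKM in Silica + ATL-III (-1.38 ± 0.30, adjusted p = 0.0075). The defining genes Cd3d (-0.59 ± 0.26, adjusted p = 0.13), Cd3g (-0.79 ± 0.29, adjusted p = 0.07), Lck (-0.67 ± 0.25, adjusted p = 0.074) and Trac (-0.07 ± 0.43, adjusted p = 0.93) were not called, Cd3e was below the filter, and the summed FPKM of these 5 ran from 11.9 to 18.0 in Silica and from 5.96 to 11.5 in Silica + ATL-III. Of 14 natural killer and cytotoxic genes 2 fell (14.3%, near the 10% of all genes). The number that fell was 1 without Silica 1, Silica + ATL-III 1 or Silica + ATL-III 2, 5 without the filter and 9 without Silica + ATL-III 3. The called genes were the chemokine Xcl1 (-2.65 ± 0.67, a call lost without Silica + ATL-III 1 or Silica + ATL-III 2, adjusted p up to 0.068) and Klrd1 (-0.79 ± 0.21, lost without Silica 1, adjusted p up to 0.071).

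MHC class II molecules present antigen on B cells, dendritic cells and macrophages. Of 13 genes 10 were lower and none higher (median -0.95). Ciita, the coactivator on which class II transcription depends, stood at 1.31, 1.63 and 1.69 FPKM in Silica and 0.48, 0.66 and 0.65 FPKM after treatment (-1.35 ± 0.18, adjusted p = 0.00057). H2-Ab1, a class II beta chain, was at 101, 49.2 and 70.2 against 44.5, 32.4 and 28.2 FPKM (-1.06 ± 0.24). H2-Ob, a B cell chaperone chain, was at 5.26, 8.88 and 5.89 against 2.25, 1.05 and 2.12 FPKM (-1.86 ± 0.28). For H2-Ab1 the groups were separated by a small gap between Silica 2 and Silica + ATL-III 1. H2-Eb1 fell (-0.75 ± 0.19, lost without Silica 1 or Silica + ATL-III 2, adjusted p up to 0.058), and H2-Aa was not called (-0.34 ± 0.21, adjusted p = 0.28). Peptide loading by class I showed 1 call among 16 genes (the number higher was 0 without Silica 1, Silica 2, Silica + ATL-III 1 or Silica + ATL-III 2). The part of the lower B cell transcripts in these changes was not tested. The Y box CTGATTGG of class II promoters, searched on both strands, was present at 4 of 11 promoters (36.4%) of this list and at 1346 of all promoters (4.10%). The window of H2-Eb1, shown because its gene was called and the box is present, has the box in capitals.
H2-Eb1, chr17:34305617-34305916 (plus strand): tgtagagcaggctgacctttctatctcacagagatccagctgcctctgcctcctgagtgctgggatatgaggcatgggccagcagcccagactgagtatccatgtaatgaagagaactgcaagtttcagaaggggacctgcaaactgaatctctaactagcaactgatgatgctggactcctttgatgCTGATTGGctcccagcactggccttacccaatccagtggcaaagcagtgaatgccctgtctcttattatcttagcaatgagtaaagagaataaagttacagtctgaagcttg
Dendritic cell genes were lower for 8 of 21 (or 5 with only the 6 libraries compared), among them Xcr1, the chemokine receptor of cross-presenting dendritic cells (1.12, 1.76 and 2.16 against 0.8, 0.42 and 0.67 FPKM, -1.40 ± 0.28).

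Macrophage genes known from scarred lung fell. Of 25 such genes 18 fell and none rose (median -1.13). Mmp12 stood at 282, 63.7 and 178 FPKM in Silica, 14.2, 6.17 and 15.9 FPKM in Silica + ATL-III and 1.03, 1.25 and 1.28 FPKM in Control (-3.85 ± 0.50, adjusted p = 0.00047). Spp1, osteopontin, was at 3983, 646 and 1412 FPKM in Silica and 363, 166 and 217 FPKM after treatment, beside 98.7, 105 and 93.02 FPKM in Control (-3.02 ± 0.55, adjusted p = 0.003). Retnla, a resistin-like protein that macrophages secrete under interleukin 4, was at 4012, 1084 and 3353 against 537, 370.3 and 373 FPKM, with 259.6, 270.3 and 246 FPKM in Control (-2.72 ± 0.38). In each of these 3 genes Silica 1 was highest and Silica 2 lowest within Silica, the 3 treated libraries lay under all Silica libraries, and they lay above the Control libraries. Ctsk, cathepsin K, stood at 459, 203 and 322 against 92.8, 62.7 and 83.2 FPKM (-2.04 ± 0.26), Trem2 at 12.5, 4.46 and 8.77 against 2.41, 1.35 and 2.64 FPKM (-1.999 ± 0.34) and Gpnmb at 100.2, 24.9 and 63.8 against 17.3, 11.6 and 11.8 FPKM (-2.21 ± 0.40). The genes of other secreted products that fell included Inhba, the activin A subunit (13.1, 5.31 and 9.02 against 2.08, 0.78 and 1.44 FPKM, -2.67 ± 0.36), and the neuropeptide Npy (20.8, 2.52 and 8.94 against 1.30, 0.84 and 0.21 FPKM, -3.76 ± 0.80), which was listed at 0 FPKM in all 3 Control libraries and was not in a list.

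**Figure D3:**
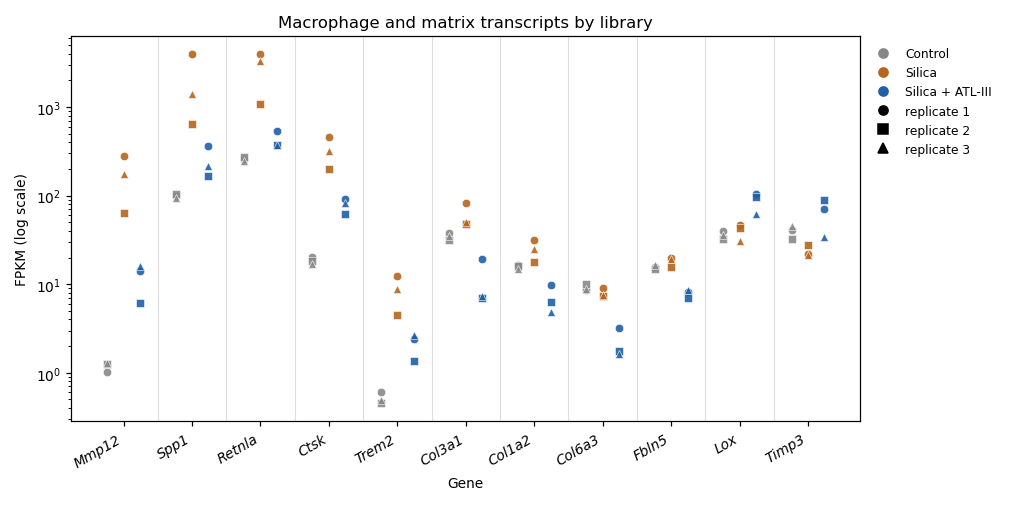
FPKM on a log axis of 5 macrophage and 6 matrix transcripts in each of the 9 libraries, coloured by group with a symbol for each replicate. Silica + ATL-III libraries lie under all Silica libraries for the first 9 genes and above them for Lox and Timp3, and for Mmp12 and Spp1 they stay above the Control libraries.

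Not every macrophage gene was lower. Of 24 general macrophage genes 7 fell (or 4 without Silica 1, Silica 3 or Silica + ATL-III 2) and 5 rose (or 2 without Silica + ATL-III 2 and 3 without Silica 3). Cd163, the haemoglobin scavenger receptor, stood at 1.04, 1.49 and 1.69 FPKM in Silica and 3.51, 4.35 and 2.96 FPKM in Silica + ATL-III (1.38 ± 0.19, adjusted p = 0.00067). Lyve1, a hyaluronan receptor of lymphatic vessels and perivascular macrophages, was at 51.1, 57.4 and 53.6 against 189, 160.3 and 95.02 FPKM (1.47 ± 0.20). Both were lower in every Silica library than in every Control library (3.00, 3.12 and 3.81 and 86.00, 74.1 and 82.5 FPKM in Control). The defining markers Adgre1 (-0.39 ± 0.17, adjusted p = 0.12), Csf1r (0.04 ± 0.12, adjusted p = 0.85), Mertk (-0.11 ± 0.15, adjusted p = 0.63) and Marco (-0.54 ± 0.29, adjusted p = 0.22) were not called, and Cd68 was called lower (-0.82 ± 0.23) but not without Silica 1, Silica 3, Silica + ATL-III 2 or Silica + ATL-III 3, adjusted p up to 0.12, or with only the 6 libraries compared or with limma on log2(FPKM + 0.5). Summed FPKM of these 5 markers ran from 97.3 to 137 in Silica, from 79.5 to 93.4 in Silica + ATL-III and from 47.5 to 54.2 in Control, and the part of these sums in the macrophage and lysosome changes was not tested. Alveolar macrophage genes fell in 8 and rose in 2 of 20 cases. The number that fell was 13 without the filter, and the number that rose 0 without Silica + ATL-III 1 or Silica + ATL-III 2 and 1 without Control 1, Silica 1 or Silica 2 or with only the 6 libraries compared or with limma on log2(FPKM + 0.5). Those that fell included Itgax (-1.21 ± 0.20) and the proton pump subunit Atp6v0d2 (124, 69.6 and 115 against 37.8, 34.2 and 37.5 FPKM, -1.48 ± 0.19). Among genes of alternative activation, Retnla and Egr2 (-1.23 ± 0.23) fell while Il4ra, the interleukin 4 receptor chain, rose from 9.80, 10.2 and 7.68 to 27.1, 31.7 and 24.2 FPKM (1.60 ± 0.14, adjusted p = 6.3e-05).

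Lysosome genes fell in 26 of 54 cases and rose in 2 (median -0.45), with the number lower at 16 without Silica + ATL-III 2 and 17 without Silica 1. Ctsd, cathepsin D, stood at 1331, 446 and 832 FPKM in Silica and 346, 290.0 and 307 FPKM after treatment (-1.46 ± 0.30, adjusted p = 0.0063). Lipa, the acid lipase that frees cholesterol from taken-up lipid, was at 22.4, 12.3 and 18.00 against 7.45, 7.28 and 7.36 FPKM (-1.24 ± 0.19). Silica 1 was again the highest library for both. The protease Lgmn (-1.17 ± 0.22) fell as well. The proton pump subunits diverged, Atp6v0d2 falling as above and Atp6v0a1 rising from 9.47, 12.8 and 10.6 to 21.5, 20.2 and 17.7 FPKM (0.87 ± 0.12, adjusted p = 0.00076). Chemokine genes fell in 14 and rose in 2 of 27 cases (median -0.75). The number that fell was 5 without Silica + ATL-III 2 and 7 without Silica 1. The number that rose was 0 without Silica 1, Silica 3 or Silica + ATL-III 2, 1 without Silica + ATL-III 1 and 4 without the filter. Ccl3, a macrophage chemokine, stood at 39.5, 34.5 and 31.7 FPKM in Silica and 8.50, 4.21 and 9.72 FPKM in Silica + ATL-III (-2.22 ± 0.33, adjusted p = 0.001), Cxcl12 at 17.2, 7.74 and 13.01 against 5.24, 4.22 and 3.86 FPKM (-1.504 ± 0.24) and Ccl6 at 1339, 797 and 1251 against 588, 418 and 553 FPKM (-1.11 ± 0.21). The members that rose were the platelet chemokines Pf4 (1.17 ± 0.33, a call lost without Silica 1, Silica 3 or Silica + ATL-III 2, adjusted p up to 0.096) and Ppbp (1.79 ± 0.52, lost without Silica 1, Silica 3, Silica + ATL-III 1 or Silica + ATL-III 2, adjusted p up to 0.11). Tnf was lower (2.63, 1.85 and 1.99 against 1.01, 0.22 and 0.55 FPKM, -1.84 ± 0.46, a call lost without Silica 1, adjusted p up to 0.06), while its receptor Tnfrsf1a (0.70 ± 0.14) and the ligand Tnfsf14 (2.98 ± 0.36) rose.

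Fibrillar collagen genes, the substance of fibrotic scar, fell in 5 of 7 cases and rose in 1 (median -0.95). Col3a1 stood at 81.7, 48.01 and 49.99 FPKM in Silica, 19.2, 6.96 and 7.35 FPKM in Silica + ATL-III and 37.5, 31.5 and 35.4 FPKM in Control (-2.41 ± 0.36, adjusted p = 0.001). Col1a2 was at 31.2, 17.7 and 24.7 against 9.88, 6.36 and 4.80 FPKM, with 16.6, 15.9 and 14.9 FPKM in Control (-1.80 ± 0.26, adjusted p = 0.0008). Col1a1 was at 5.06, 5.70 and 4.77 against 3.86, 2.66 and 2.14 FPKM, with 7.95, 5.47 and 5.95 FPKM in Control (-0.82 ± 0.20, adjusted p = 0.014). For these 3 genes every treated library lay under every Silica and every Control library, and the call of Col1a1 was lost without Silica + ATL-III 2, adjusted p up to 0.06. Col5a2 (-1.41 ± 0.19) and Col27a1 (-0.95 ± 0.13) also fell, Col5a1 was not called (-0.35 ± 0.20, adjusted p = 0.24), and the low-level Col11a2 rose from 0.42, 0.5 and 0.51 to 1.72, 1.61 and 1.38 FPKM (1.74 ± 0.19). Among 19 other collagens 4 fell and 2 rose (21.1% and 10.5%, beside 10% and 11.2% of all genes). The number that rose was 1 without Silica 1, Silica 3, Silica + ATL-III 1 or Silica + ATL-III 2 or with library totals alone or with only the 6 libraries compared or with limma on log2(FPKM + 0.5) and 6 without Silica + ATL-III 3. Col6a3 led those that fell, at 9.17, 7.39 and 7.60 against 3.20, 1.75 and 1.64 FPKM (-1.86 ± 0.22, adjusted p = 0.00027).

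Enzymes that cross-link collagen diverged. Lox, lysyl oxidase, stood at 46.7, 42.99 and 30.5 FPKM in Silica and 104, 96.5 and 62.6 FPKM in Silica + ATL-III (1.15 ± 0.20, adjusted p = 0.0026), while its relative Loxl1, which serves elastic fibres, was at 9.92, 12.1 and 10.8 against 6.54, 3.42 and 4.17 FPKM (-1.19 ± 0.19, adjusted p = 0.0016). Neither showed overlap between the groups. Of 22 collagen processing genes 2 rose and 2 fell, near the shares of all genes. The number that rose was 1 without Control 1, Control 2, Control 3, Silica 1, Silica 2, Silica 3, Silica + ATL-III 1 or Silica + ATL-III 2 or with only the 6 libraries compared or with limma on log2(FPKM + 0.5). The number that fell was 5 without Silica + ATL-III 1 or with DESeq2 or without the filter. Elastic fibre genes fell in 8 and rose in 2 of 15 cases. Mfap5, a microfibril protein, was at 20.6, 18.5 and 19.2 against 8.83, 7.49 and 6.87 FPKM (-1.31 ± 0.12, adjusted p = 8e-05). Fbln5, fibulin 5, was at 19.9, 15.5 and 19.1 against 8.19, 7.07 and 8.56 FPKM (-1.18 ± 0.13). Elastin itself (Eln) was not called (-0.14 ± 0.21, adjusted p = 0.69). Fn1, fibronectin, stood at 39.4, 19.5 and 24.8 FPKM in Silica and 17.9, 14.7 and 15.4 FPKM after treatment (-0.795 ± 0.22, adjusted p = 0.026), and its call was lost without Silica 1, Silica + ATL-III 2 or Silica + ATL-III 3, adjusted p up to 0.092, or with only the 6 libraries compared. Tnc, tenascin C, was at 4.19, 1.91 and 2.40 against 1.13, 0.44 and 0.44 FPKM (-2.08 ± 0.38).

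Matrix proteases and their inhibitors moved both ways. The neutrophil enzymes Mmp8, Mmp9 and Mmp25 (2.45 ± 0.39) rose, and the macrophage and fibroblast enzymes Mmp12, Mmp2 (14.2, 12.5 and 13.2 against 8.54, 5.58 and 4.87 FPKM, -1.06 ± 0.18) and Mmp14 (-0.94 ± 0.19) fell. Timp3, a matrix-bound inhibitor, stood at 22.1, 27.5 and 21.3 FPKM in Silica and 70.1, 88.3 and 33.8 FPKM in Silica + ATL-III (1.46 ± 0.27, adjusted p = 0.0037), with Silica + ATL-III 3 the lowest treated library. Timp1 was at 28.6, 13.9 and 25.4 against 31.1, 13.7 and 8.93 FPKM and was not called (-0.33 ± 0.38, adjusted p = 0.57), with Silica + ATL-III 1 above every Silica library and Silica + ATL-III 2 and 3 below every Silica library.

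TGF-beta is the main driver of collagen genes in fibroblasts. Of 29 ligands, receptors and targets 8 fell and 5 rose. The number that fell was 5 with only the 6 libraries compared, and the number that rose 8 without the filter. Tgfb1 was not called (4.18, 3.74 and 3.63 against 3.01, 3.94 and 3.28 FPKM, -0.16 ± 0.15, adjusted p = 0.49). Tgfb2 was at 5.08, 6.55 and 5.86 FPKM in Silica and 2.14, 2.21 and 2.92 FPKM after treatment (-1.24 ± 0.15, adjusted p = 0.00027), without overlap. The type I receptor Tgfbr1 fell (-0.52 ± 0.10), and the coreceptors Tgfbr3 (0.96 ± 0.15) and Eng (0.93 ± 0.18), both abundant in endothelium, rose. Tgfbi, a TGF-beta-induced adhesion protein that monocytes also make, rose from 20.7, 18.9 and 18.03 to 34.1, 37.7 and 42.4 FPKM (1.01 ± 0.12). Fibroblast genes fell in 12 and rose in 3 of 28 cases (median -0.42, with the number that rose at 5 without Silica + ATL-III 3). Tcf21, a factor of lipofibroblasts, was at 20.1, 21.7 and 15.03 against 8.83, 9.28 and 12.8 FPKM (-0.86 ± 0.17). Lum, lumican, was at 8.69, 7.73 and 7.21 against 3.41, 2.64 and 3.02 FPKM (-1.36 ± 0.17). Pdgfra (0.21 ± 0.13, adjusted p = 0.29) and Dcn (0.20 ± 0.16, adjusted p = 0.41) were not called, and Pi16, a marker of adventitial fibroblasts, rose from 1.62, 2.82 and 1.79 to 5.69, 9.97 and 14.7 FPKM (2.31 ± 0.30, adjusted p = 0.00048). Summed FPKM of the 5 defining fibroblast markers (Pdgfra, Tcf21, Col1a2, Dcn and Lum) ran from 102 to 115 in Silica and from 77.5 to 89.8 in Silica + ATL-III. This sum contains the collagen gene Col1a2 and is therefore not independent of the collagen changes. The part of the fibroblast markers in the collagen changes was not tested. Acta2, the smooth muscle actin of myofibroblasts, was at 14.6, 16.3 and 17.1 against 13.3, 17.00 and 12.8 FPKM and was not called (-0.13 ± 0.12, adjusted p = 0.47).

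Alveolar type 2 cells make surfactant. The surfactant proteins Sftpc (-0.21 ± 0.20, adjusted p = 0.48), Sftpb (-0.09 ± 0.17, adjusted p = 0.74) and Sftpa1 (-0.21 ± 0.16, adjusted p = 0.39) and the lipid pump Abca3 (-0.06 ± 0.16, adjusted p = 0.82) were not called, and their summed FPKM overlapped between groups (27095 to 32717 in Silica, 22469 to 29533 in Silica + ATL-III). Other type 2 genes fell, 12 of 23 in all with none higher (median -0.56). Lpcat1, which remodels surfactant phospholipid, stood at 78.1, 61.5 and 79.9 FPKM in Silica and 32.9, 34.2 and 32.1 FPKM after treatment (-1.13 ± 0.12, adjusted p = 0.00021). Lamp3, a protein of lamellar bodies, was at 399.8, 410.0 and 482 against 293, 231 and 261 FPKM (-0.70 ± 0.14). Of type 1 cell genes 5 of 19 fell (or 3 without Silica 1 or with only the 6 libraries compared), among them the water channel Aqp5 (98.6, 68.6 and 77.05 against 47.2, 46.97 and 51.9 FPKM, -0.73 ± 0.14), while Ager (-0.09 ± 0.20, adjusted p = 0.79) and Hopx (0.25 ± 0.13, adjusted p = 0.19) were not called. Itgb6, the epithelial integrin chain that activates latent TGF-beta, was at 17.6, 18.5 and 16.8 against 10.04, 5.85 and 7.38 FPKM (-1.16 ± 0.18, adjusted p = 0.0013). Of 19 airway secretory genes 3 rose and 3 fell (15.8% each, beside 11.2% and 10% of all genes). Those that rose numbered 7 without the filter. Those that fell numbered 1 without Silica 1, Silica 3 or Silica + ATL-III 2, 5 without the filter and 6 without Silica 2. Among the genes that fell was the antibacterial lectin Reg3g (-1.40 ± 0.26). Of 22 ciliated cell genes edgeR called 0 in either direction, while 8 had an unadjusted p under 0.05 and DESeq2 called 1 higher and 2 lower. The number lower was 2 with DESeq2, 3 without Silica 2 and 4 without Silica + ATL-III 3, and the number higher 2 without the filter. Dnai1, a dynein arm gene, had 0.52 ± 0.17 (adjusted p = 0.053).

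Endothelial genes rose in 12 and fell in 3 of 33 cases (median 0.30). Pecam1 stood at 27.04, 37.3 and 35.6 FPKM in Silica and 60.02, 86.3 and 44.3 FPKM in Silica + ATL-III (0.95 ± 0.21, adjusted p = 0.0077). Ramp2, a receptor chain for adrenomedullin, was at 17.1, 19.5 and 19.2 against 30.02, 38.8 and 31.4 FPKM (0.87 ± 0.11). Venular and adhesion genes were among those that rose, with Ackr1 (2.32 ± 0.49) and P-selectin (Selp, 1.51 ± 0.23), the latter also a platelet gene. Cdh5 (0.04 ± 0.18, adjusted p = 0.9) and Kdr (-0.17 ± 0.14, adjusted p = 0.42) were not called, and Emcn (-0.79 ± 0.18), Apln (-0.795 ± 0.19) and Aplnr (-1.01 ± 0.18) fell. Ly6c1, a surface protein of mouse lung endothelium and blood cells, was at 177, 371 and 263 against 1096, 1027 and 725 FPKM (1.84 ± 0.23).

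The axis named in the study title was measured gene by gene. Egfr stood at 2.15, 1.93 and 1.68 FPKM in Silica and 3.23, 3.16 and 1.81 FPKM in Silica + ATL-III and was not called (0.53 ± 0.19, adjusted p = 0.074). Mtor stood at 1.92, 2.58 and 2.27 against 2.70, 2.81 and 2.13 FPKM and was not called (0.19 ± 0.13, adjusted p = 0.31). For Egfr, Silica + ATL-III 1 and 2 lay above and Silica + ATL-III 3 within the Silica range. Of 14 EGF receptor and ligand genes 2 rose and 2 fell (14.3% each, near the 11.2% and 10% of all genes). Those that rose numbered 0 without Silica 1, Silica + ATL-III 1 or Silica + ATL-III 2 or with only the 6 libraries compared or with limma on log2(FPKM + 0.5), 1 without Silica 2 or Silica 3 or with library totals alone and 4 without Silica + ATL-III 3. Those that fell numbered 1 without Silica 1, Silica 3 or Silica + ATL-III 1 or with only the 6 libraries compared. The receptor Erbb3 (0.52 ± 0.14) and the ubiquitin ligase Cbl (0.39 ± 0.11), which marks EGFR for degradation, rose, and the sheddase Adam17 (-0.34 ± 0.10) fell. Each of these 3 calls was lost without Silica 1, without Silica + ATL-III 1 and with only the 6 libraries compared, among other settings. Adam10, another sheddase that frees EGF ligands, was at 46.2, 39.3 and 38.9 against 29.9, 29.2 and 29.9 FPKM (-0.47 ± 0.11, adjusted p = 0.0097), and the ligand Areg, amphiregulin, missed the threshold (-1.15 ± 0.40, adjusted p = 0.06). In the PI3K, AKT and mTOR list 12 of 51 were higher and 5 lower (23.5% and 9.8%, beside 11.2% and 10% of all genes). The share lower was thus near that of all genes. The number higher was 5 without Silica 3 or Silica + ATL-III 1 and 7 without Silica + ATL-III 2 or with only the 6 libraries compared. The number lower was 1 without Silica 3, 2 without Silica 1, Silica + ATL-III 1 or Silica + ATL-III 2 and 3 with only the 6 libraries compared. Eif4ebp1, a translation repressor that mTOR complex 1 inactivates, rose from 7.17, 5.12 and 5.25 to 10.4, 10.5 and 11.3 FPKM (0.89 ± 0.16), the AMPK-activating kinase Stk11 rose by 0.43 ± 0.09, and Castor2, a relative of an arginine sensor upstream of mTOR, rose by 0.57 ± 0.13.

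Autophagy genes rose in 12 of 49 cases (7 without Silica 3) and fell in 6 (median 0.20). These were 24.5% and 12.2%, beside 11.2% and 10% of all genes, so the share that fell was near that of all genes. Those that fell numbered 0 without Silica + ATL-III 2, 1 without Silica + ATL-III 1, 2 without Silica 1 or with only the 6 libraries compared and 3 without Silica 3 or without the filter. Ulk1, the kinase that starts autophagosome formation, stood at 4.49, 5.96 and 5.39 FPKM in Silica and 10.7, 9.28 and 7.77 FPKM in Silica + ATL-III, with 7.63, 7.17 and 7.58 FPKM in Control (0.83 ± 0.13, adjusted p = 0.0011). Atg9a, which supplies membrane, was at 1.19, 1.91 and 1.39 against 3.26, 3.33 and 2.31 FPKM (1.01 ± 0.18, adjusted p = 0.0032). Map1lc3b, the LC3 protein of the autophagosome membrane, was at 21.6, 16.9 and 18.4 against 30.2, 33.2 and 26.5 FPKM (0.67 ± 0.13, adjusted p = 0.0038). For these 3 genes no treated library reached down into the Silica range. Gabarapl1, a relative of LC3, rose by 0.69 ± 0.14. Atg5, which joins the conjugation machinery, was at 30.6, 24.8 and 27.9 against 18.4, 18.8 and 22.3 FPKM (-0.47 ± 0.12, adjusted p = 0.02), and this call was lost without Silica 1, Silica 3, Silica + ATL-III 1 or Silica + ATL-III 2, adjusted p up to 0.074. Becn1 (12.8, 15.1 and 12.5 against 15.9, 16.1 and 14.7 FPKM, 0.23 ± 0.10, adjusted p = 0.099), Atg7 (-0.03 ± 0.13, adjusted p = 0.9) and the cargo receptor Sqstm1 (91.5, 56.4 and 70.1 against 82.1, 85.8 and 61.4 FPKM, 0.08 ± 0.18, adjusted p = 0.79) were not called. Transcript levels say nothing of autophagic flux or of EGFR and mTOR phosphorylation, which were not measured here.

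Genes that glucocorticoid hormones induce were higher in the treated lungs. The glucocorticoid receptor enters the nucleus with its hormone and switches on a well-known set that includes Fkbp5, Zbtb16, Tsc22d3 and the metallothioneins. Of 20 such genes 15 rose and none fell (median 1.05), a number that became 9 without Silica 3 or Silica + ATL-III 2. Fkbp5, a receptor cochaperone, stood at 5.47, 1.88 and 3.88 FPKM in Silica and 29.6, 32.8 and 10.3 FPKM in Silica + ATL-III (2.70 ± 0.43, adjusted p = 0.0014), with 4.55, 4.57 and 5.54 FPKM in Control. Mt2, metallothionein 2, was at 35.1, 15.4 and 36.6 against 435, 206 and 61.99 FPKM (3.02 ± 0.56, adjusted p = 0.0035). Hif3a was at 0.4, 0.49 and 0.75 against 4.68, 3.81 and 1.73 FPKM (2.65 ± 0.34, adjusted p = 0.00041). In all 3 genes Silica + ATL-III 3 was the lowest treated library, and it still lay above every Silica library. For Zbtb16 (6.03, 2.92 and 6.11 against 22.7, 25.8 and 3.28 FPKM, 1.79 ± 0.57, adjusted p = 0.045) it did not, and that call was lost without Control 1, Control 3, Silica 1, Silica 2, Silica 3, Silica + ATL-III 1 or Silica + ATL-III 2, adjusted p up to 0.16, or with DESeq2, with only the 6 libraries compared or with limma on log2(FPKM + 0.5). Tsc22d3, the gene of GILZ, also rose (0.77 ± 0.24, lost without Control 1, Control 2, Control 3, Silica 2, Silica 3, Silica + ATL-III 1 or Silica + ATL-III 2, adjusted p up to 0.16, or with only the 6 libraries compared or with limma on log2(FPKM + 0.5)), and Sgk1 (-0.21 ± 0.18, adjusted p = 0.45) was not called. Hormone levels were not measured here.

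**Figure D4:**
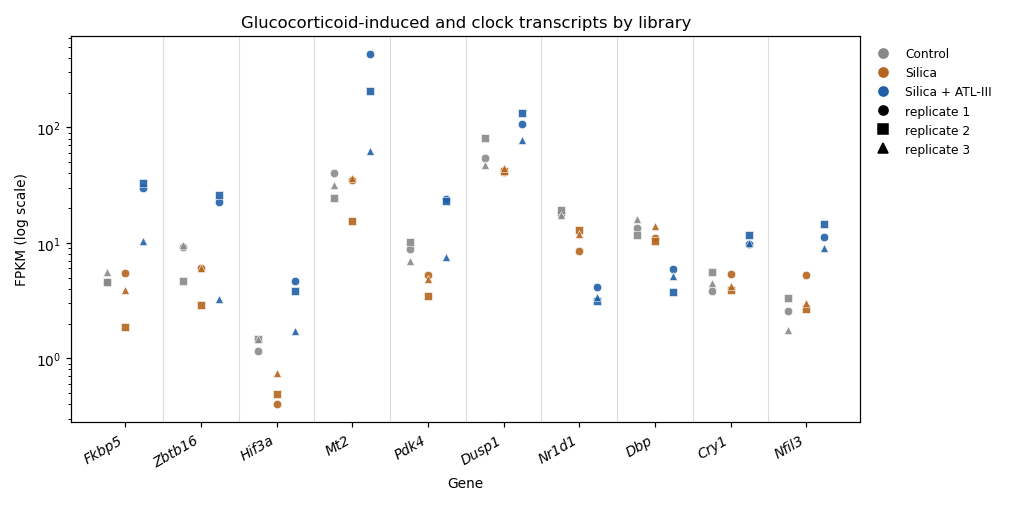
FPKM on a log axis of 6 glucocorticoid-induced and 4 clock transcripts in each of the 9 libraries, coloured by group with a symbol for each replicate. For Fkbp5, Zbtb16, Hif3a, Mt2, Pdk4 and Dusp1 Silica + ATL-III 3 (triangle) is the lowest treated library, and for the clock genes Nr1d1 and Dbp all 3 treated libraries lie under, for Cry1 and Nfil3 above, every Silica library.

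Genes of the circadian clock also moved in both directions, 8 of 18 higher (or 5 without Silica + ATL-III 2) and 5 lower. Nr1d1, the repressor REV-ERB alpha, stood at 8.44, 12.8 and 11.8 FPKM in Silica, 4.11, 3.11 and 3.40 FPKM in Silica + ATL-III and 17.6, 19.1 and 17.4 FPKM in Control (-1.61 ± 0.15, adjusted p = 9.8e-05). Dbp, an activator driven by the clock, was at 11.1, 10.4 and 14.03 against 5.91, 3.79 and 5.16 FPKM (-1.24 ± 0.18, adjusted p = 0.00096). Cry1, a repressor in the clock's feedback loop, was at 5.42, 3.90 and 4.22 against 9.72, 11.6 and 10.1 FPKM (1.23 ± 0.17, adjusted p = 0.00069). Nfil3, the antagonist of Dbp at shared sites, was at 5.22, 2.70 and 3.00 against 11.2, 14.5 and 9.05 FPKM (1.68 ± 0.29). None of these 4 genes overlapped between the groups, and Arntl (0.36 ± 0.25, adjusted p = 0.32) was not called. The labels give no hour of tissue collection, so a difference in the hour and a difference in treatment cannot be told apart. Immediate early genes, which respond within minutes to stimuli and to handling of tissue, rose in 13 of 23 cases and fell in 1 (3 without Silica 2 or without the filter; median 0.61). Dusp1 stood at 40.9, 41.9 and 44.2 against 106, 134 and 77.6 FPKM (1.34 ± 0.21, adjusted p = 0.0013). Ier2 was at 12.3, 12.1 and 12.4 against 17.7, 22.03 and 22.1 FPKM (0.77 ± 0.12).

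Many xenobiotic metabolism genes rose. Of 33 genes 20 were higher and 1 lower (median 0.72). Gsta3, a glutathione transferase, stood at 51.3, 68.5 and 58.2 FPKM in Silica, 125, 132 and 144 FPKM in Silica + ATL-III and 98.99, 89.95 and 101 FPKM in Control (1.19 ± 0.12, adjusted p = 0.00012). Cyp4b1, a club cell cytochrome, was at 102, 119 and 121 against 166, 293 and 217 FPKM, with 192, 178 and 190.3 FPKM in Control (1.001 ± 0.17). In both genes the Control libraries lay above every Silica library. Por, the reductase that feeds electrons to all microsomal cytochromes P450, rose by 1.22 ± 0.18, and Cyp2b10, a target of the receptor CAR, by 1.07 ± 0.18. Cyp1a1, the target of the aryl hydrocarbon receptor, fell (8.87, 7.45 and 12.8 against 4.85, 5.70 and 2.56 FPKM, -1.13 ± 0.30, a call lost without Silica 3, adjusted p up to 0.083). The club cell marker Scgb1a1 was not called (34593, 80317 and 77051 against 82394, 94851 and 87854 FPKM, 0.497 ± 0.27, adjusted p = 0.21), with Silica 1 far under the other libraries. Cells under oxidative stress use the factor NRF2, whose list had 7 of 33 higher (or 4 without Silica 2 or Silica + ATL-III 2) and 7 lower (or 3 without Silica 1 or Silica 3 and 4 without Silica + ATL-III 1, Silica + ATL-III 2 or Silica + ATL-III 3 or with only the 6 libraries compared). Its classical target Nqo1 was not called (0.09 ± 0.21, adjusted p = 0.81), and Prdx1 was lower (881, 407 and 634 against 256, 199 and 285 FPKM, -1.37 ± 0.25).

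Sterol synthesis genes fell. Of 31 cholesterol and lipid genes 16 fell and 4 rose (median -0.39). Cyp51, lanosterol demethylase, stood at 29.7, 21.8 and 25.6 FPKM in Silica, 8.50, 8.44 and 10.6 FPKM in Silica + ATL-III and 13.7, 12.9 and 13.4 FPKM in Control (-1.47 ± 0.14, adjusted p = 0.00012). Sqle, squalene epoxidase, was at 10.4, 8.73 and 9.34 against 4.54, 5.04 and 4.96 FPKM (-0.95 ± 0.11, adjusted p = 0.00032). Hmgcs1, an early enzyme of the pathway, was at 27.1, 29.3 and 27.8 against 16.7, 16.8 and 15.2 FPKM (-0.77 ± 0.10, adjusted p = 0.00039). Groups did not overlap in any of the 3. Fdps (-0.92 ± 0.18) and Dhcr7 (-1.43 ± 0.27) fell as well, and so did Scd1, the stearoyl-CoA desaturase, at 779, 391 and 539.9 against 199, 193 and 152 FPKM (-1.64 ± 0.23, adjusted p = 0.0007). The enzymes of the last step of triglyceride synthesis went the other way: Dgat1 stood at 8.91, 8.10 and 9.86 against 27.2, 37.8 and 27.1 FPKM (1.79 ± 0.19, adjusted p = 0.0002) and Dgat2 at 1.04, 1.12 and 1.24 against 4.76, 5.37 and 4.73 FPKM (2.14 ± 0.20, adjusted p = 8.8e-05).
The promoter of Hmgcs1 is shown because it is the only one among 25 of this list with the sterol regulatory element TCACNCCAC (408 of all promoters, 1.24%), and that of Mt1, a metallothionein that rose by 1.97 ± 0.41, because it is one of 2 among 27 promoters of the glucocorticoid-induced list with the receptor's response element (156 of all promoters, 0.475%). Both motifs were searched on both strands, and the letters matched are in capitals.
Hmgcs1, chr13:119690101-119690400 (plus strand): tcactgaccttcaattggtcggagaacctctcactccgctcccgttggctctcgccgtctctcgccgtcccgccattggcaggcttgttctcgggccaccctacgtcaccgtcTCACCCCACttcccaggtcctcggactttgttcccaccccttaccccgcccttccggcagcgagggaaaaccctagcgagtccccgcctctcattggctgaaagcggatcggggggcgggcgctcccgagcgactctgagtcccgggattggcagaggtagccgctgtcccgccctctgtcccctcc
Mt1, chr8:94178839-94179138 (plus strand): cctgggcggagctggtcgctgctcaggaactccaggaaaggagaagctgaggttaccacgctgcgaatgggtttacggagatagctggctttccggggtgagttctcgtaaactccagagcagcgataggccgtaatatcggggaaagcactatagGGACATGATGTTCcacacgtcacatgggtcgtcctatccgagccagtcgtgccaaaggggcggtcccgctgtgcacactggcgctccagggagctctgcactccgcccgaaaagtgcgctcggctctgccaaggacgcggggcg

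**Figure D5:**
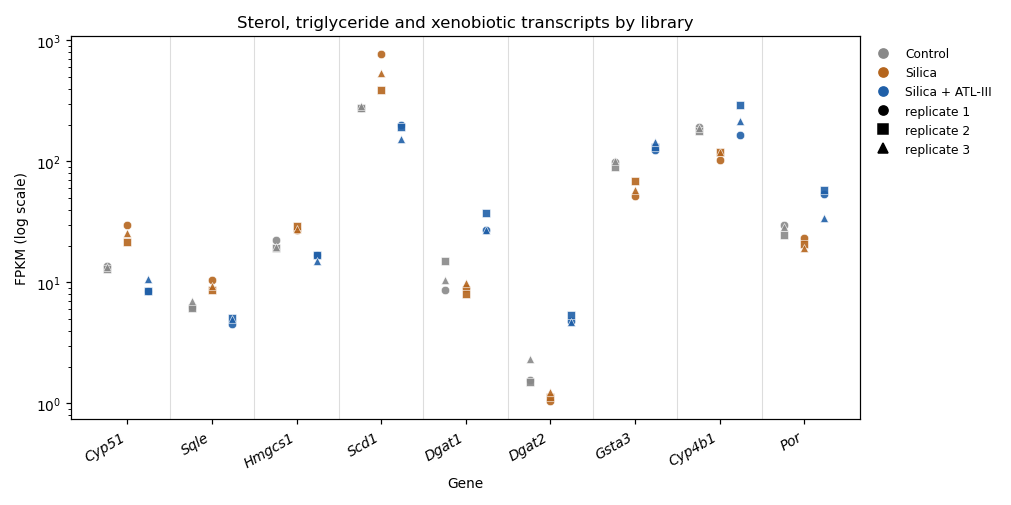
FPKM on a log axis of 6 sterol and triglyceride and 3 xenobiotic transcripts in each of the 9 libraries, coloured by group with a symbol for each replicate. The Silica + ATL-III libraries lie under the Silica libraries for Cyp51, Sqle, Hmgcs1 and Scd1 and above them for Dgat1, Dgat2, Gsta3, Cyp4b1 and Por.

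Of 42 ribosomal protein genes 1 was higher and 2 lower. The number higher was 0 without Control 1, Silica 2, Silica 3, Silica + ATL-III 1 or Silica + ATL-III 2 or with only the 6 libraries compared. The number lower was 0 without Silica 1, Silica 3, Silica + ATL-III 1 or Silica + ATL-III 2, 1 with only the 6 libraries compared, 4 without the filter and 5 without Silica 2 or Silica + ATL-III 3. Of 27 heat shock and ER chaperone genes 2 rose and 2 fell (7.41% each, beside 11.2% and 10% of all genes). The number that rose was 1 without Silica 3 or Silica + ATL-III 2 and 5 without the filter. The number that fell ranged from 0 without Silica 1 to 7 without Silica 2. The small heat shock protein Hspb1 rose (32.4, 18.98 and 21.9 against 87.9, 99.1 and 34.5 FPKM, 1.60 ± 0.32). Oxidative phosphorylation genes fell in 7 of 30 cases with none higher, but the number was 1 without Silica 1, Silica 3, Silica + ATL-III 1 or Silica + ATL-III 2 or with only the 6 libraries compared, 2 without Control 1 or Control 3, 4 without Control 2 and 12 without Silica 2. Cell cycle genes fell in 6 of 29 cases with none higher (or 1 without Silica 1 or Silica + ATL-III 2 and 2 without Silica 3 or with only the 6 libraries compared). Nusap1, a spindle protein, was at 3.19, 3.43 and 2.99 FPKM in Silica and 2.00, 1.80 and 2.10 FPKM after treatment (-0.68 ± 0.14, adjusted p = 0.0055). Both main glucose transporter genes rose, with Slc2a3, the transporter of neutrophils and platelets, at 0.82, 2.31 and 0.99 against 7.25, 8.05 and 7.46 FPKM (2.50 ± 0.37, adjusted p = 0.00094) and Slc2a1 at 6.10, 4.29 and 5.05 against 8.42, 9.34 and 7.70 FPKM (0.74 ± 0.15). Interferon-induced genes rose in 3 of 30 cases, near the 11.2% of all genes, and fell in none. The 3 were all of the oligoadenylate synthetase family: Oas2 (3.16, 6.29 and 3.13 against 17.9, 10.8 and 13.1 FPKM, 1.76 ± 0.26), Oasl2 (1.73 ± 0.31) and Oas3 (2.11 ± 0.50, lost without Silica 1 or Silica 3, adjusted p up to 0.058). The number that rose was 5 without Silica + ATL-III 2 or Silica + ATL-III 3 and 9 without the filter, and the number that fell was 8 without Silica + ATL-III 1, where the direction of the list turned.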

How the data were processed

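The deposited table holds, for each gene and library, a raw whole-number count and an FPKM value, both made by the authors. The submitters' processing notes name cutadapt 1.9.1, HISAT2 2.0.1, HTSeq 0.6.1 and mm10, without roles. FPKM recomputed from the deposited counts, exonic lengths and column totals came within 0.006 of the deposited FPKM for 100% of values. Chromosomes are the deposited ones. Positions in the table did not match mm10 and are not printed. Poly(A) RNA was sequenced, and per the labels' protocols no step that marks strand is named, so antisense partners cannot be told apart.

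The counts of all 9 libraries entered one edgeR 4.0.16 model (R 4.3.3; TMM, quasi-likelihood test, 3 group means, 6 residual degrees of freedom). Genes were kept at FPKM 1 in 3 libraries and called where p, adjusted by Benjamini and Hochberg, was under 0.05. The filter did not look at groups, so a gene could pass it through a single group. The SE was taken from the fold change and the F statistic. Alternatives were DESeq2 1.42.0, library totals alone, no filter, only the 6 libraries compared, limma 3.58.1 on log2(FPKM + 0.5), a replicate block and leaving out each library. Scripts were tested on simulated data. No pair of libraries within a group was alike within sampling noise (chi-square at least 5.99 times its degrees of freedom).

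The genes compared, the 68 gene lists and the rule for named genes were chosen with earlier results of these data known. Among genes with a symbol that is not of a small RNA, pseudogene or predicted gene, the rule names the 10 strongest increases and decreases without overlap and with at least 2 FPKM, the 10 largest gains and losses in FPKM, the 4 members of each list with the smallest p and the leading member called in the other direction, 16 genes of autophagy, EGFR and matrix, and defining cell type markers. The text names those its lists need, and some named by the rule are not reported here. Further genes were named after their values were seen: Ackr1, Apln, Arntl, Casp4, Ccr2, Cd177, Clec7a, Col5a1, Csf2, Csta2, Cx3cr1, Cxcl1, Cxcl5, Cyp2b10, Dbp, Dhcr7, Eln, Emcn, Eng, Fdps, Gpnmb, H2-Aa, H2-Ab1, H2-Eb1, Hmgcs1, Igkc, Il1b, Il1r1, Il1rn, Lamp3, Lcn2, Lgmn, Ly6g, Mmp14, Mmp2, Mt1, Myd88, Nfil3, Nlrp3, Nqo1, Pdk4, Por, Sgk1, Stat3, Tgfbr3, Timp3, Tlr4, Tnf, Tnfrsf1a, Trem1, Trem2, Tsc22d3 and Zbtb16, with the genes below the filter Mpo, Elane, Prtn3, Csf3 and Il6. Promoters are RefSeq's (GRCm38.p6).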

Additional observations from a re-analysis of the deposited data

How the results depend on the processing

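Without each library in turn, genes called ranged from 1925 to 3877, genes called higher from 1099 to 1930 and genes called lower from 826 to 1947, against 3279, 1726 and 1553 with all 9. With only the 6 libraries compared, 1013 genes were called lower. Without the filter on low values, 1565 genes were called with at least a 2-fold change, with 33325 genes tested. The share called higher was 52.6% with TMM, 51.1% with DESeq2, 45.9% with library totals alone and 45.3% with limma. The fit with the replicate block called 2822 genes, of which 2744 were among the 3279. Same-numbered Silica and Silica + ATL-III libraries did not deviate together (r = -0.107 to -0.0068), and 0 of 6 libraries correlated best with its own number, so the numbers were not treated as pairs. Whichever single library was left out, 1601 genes kept their call, 923 of them higher and 678 lower. Of 6506 values of named genes under the alternatives, 5976 kept their side of the threshold, 447 lost the call and 83 gained one. For genes called in either fit, 0 values reversed direction. A change of sign in a gene called in neither fit was counted as kept. Depth of 16288590 to 17792481 counts in the 6 libraries limits genes near or under 1 FPKM, such as the azurophil granule genes, which reached 1 FPKM in at most 2 libraries.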

Other observations

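Gene groups not described above were counted as well. Fc receptors, which bind the tails of antibodies, rose for 3 and fell for 3 (5 without the filter) of 11 genes. Fcgr4, an activating receptor of neutrophils and monocytes, stood at 22.8, 20.1 and 17.5 FPKM in Silica and 56.1, 50.8 and 75.1 FPKM in Silica + ATL-III (1.61 ± 0.23, adjusted p = 0.00081), and no treated library reached down to the Silica range, while the B cell genes Fcer2a and Fcrla (-1.88 ± 0.35) fell. Complement genes rose for 5 (or 2 without Silica 3 and 3 without Silica 1) and fell for 2 of 23. These were 21.7% and 8.7%, beside 11.2% and 10% of all genes, so the share that fell was near that of all genes. Cfp, properdin, which neutrophils store, was at 15.4, 14.2 and 15.1 against 31.6, 33.8 and 28.8 FPKM (1.09 ± 0.13, adjusted p = 0.00026), and C3ar1, the C3a receptor of macrophages, at 7.15, 3.98 and 5.35 against 2.71, 1.57 and 2.64 FPKM (-1.24 ± 0.25).

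Genes of iron and metal handling rose for 7 and fell for 3 (or 0 without Silica 1, Silica 3 or Silica + ATL-III 2 or with only the 6 libraries compared and 1 without Silica + ATL-III 1) of 22. Slc40a1, the iron exporter ferroportin, stood at 3.34, 2.78 and 2.43 FPKM in Silica and 7.43, 7.07 and 11.2 FPKM in Silica + ATL-III (1.60 ± 0.31, adjusted p = 0.0043), and Steap4, a metal reductase, at 14.2, 12.1 and 11.04 against 35.5, 48.5 and 36.5 FPKM (1.71 ± 0.15, adjusted p = 8e-05). Basement membrane genes fell for 6 of 21 (or 3 without Silica 3) and rose for none, but the number that rose was 3 without the filter and 4 without Silica + ATL-III 3. Col4a5, a collagen IV chain, was at 17.6, 20.8 and 20.5 against 11.2, 10.8 and 11.02 FPKM (-0.82 ± 0.10, adjusted p = 0.00027).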
